A study of Rattus norvegicus with 9 samples.

Results

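The 10 immediate early genes Fos, Fosb, Jun, Junb, Jund, Atf3, Egr1, Nr4a1, Ier2 and Dusp1 were examined in rat spleen. They were taken by symbol from the 34408 gene entries of the deposited count table, where each symbol matched 1 entry, and all 10 were among the 15954 genes abundant enough to test. The series addresses celecoxib in the enlarged spleen of cirrhosis and holds 9 spleen RNA libraries, 3 in each of 3 groups, all labelled wild type. Control rats carry no agent in the labels, and the labels give the cell type of all groups as splenocytes. Rats of the TAA group were injected into the peritoneum with thioacetamide, a hepatotoxin, every 3 days at 200 mg/kg for 8 weeks and at 100 mg/kg for a further 8 weeks. Rats of the TAA+celecoxib group had those injections and celecoxib, a cyclooxygenase 2 inhibitor, at 20 mg/kg/day during the last 8 weeks. No group given celecoxib alone was analysed here. Strain, age and sex are not in the labels, and the labels do not say that each library is a separate animal, so p-values measure the spread between these libraries only.

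Immediate early genes are transcribed within minutes of a stimulus without new protein synthesis, and their mRNAs are short-lived. Growth factors, antigen receptors, cytokines and cell stress reach them through MAP kinases, serum response factor and CREB. Fos, Jun and ATF proteins pair through leucine zippers to form AP-1, Egr1 and Nr4a1 encode DNA-binding factors of other families, and Dusp1 encodes a phosphatase that switches MAP kinases off. In the spleen they are known as markers of recently stimulated lymphocytes and macrophages, and in many tissues they respond to stress.

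No member passed the test in any comparison, and the spread between libraries of 1 group was large for Fos, Fosb and Dusp1 and small for Ier2. Fos ranged from 2.72 to 69.3 CPM (read counts scaled to a common library size after TMM scaling), a ratio of 25.5 between the highest and lowest library, and within each group its highest library was 7.23 to 11.8 times its lowest. Fosb spanned a ratio of 9.44, Dusp1 4.42 and Nr4a1 3.59. Ier2, at the other end, spanned 1.52.

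Libraries held 14211789 to 19014761 counts, so that 1 count was worth 0.0522 to 0.0711 CPM. On principal component 1 (31.3% of the variance) control 1 lay at -63.2 and TAA+celecoxib 1 at -60.3, apart from the other 7 libraries between -1.73 and 50.1. Their 7 macrophage markers summed to 2530 and 1930 CPM, against 3810 to 7660 CPM in the others, and their 4 matched endothelial markers to 117 and 112 CPM, against 364 to 671 CPM. Of the splenocyte markers all 6 T cell and all 5 B cell markers had counts, summing to 521 to 861 and 997 to 1930 CPM. Erythroid markers ranged from 94.2 CPM in control 3 to 3430 CPM in TAA+celecoxib 2, neutrophil markers from 78.3 CPM in control 1 to 1980 CPM in TAA 3, while hepatocyte markers, at most 0.771 CPM in 7 libraries, reached 100 CPM in control 1 and 706 CPM in TAA 1. These are bulk libraries, in which fewer cells of a type and less RNA per cell cannot be told apart.

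Levels of different genes were compared on the deposited FPKM scale, which divides by gene length. Jund was the most abundant member, at 143 ± 30.8 FPKM (SD, n = 9 libraries), and Fosb the least, at 0.843 ± 0.705 FPKM. Between them, in descending order, lay Ier2 at 73.4 FPKM, Junb at 71.7, Dusp1 at 56.6, Jun at 20.8, Nr4a1 at 15.6, Fos at 15.2, Egr1 at 12.5 and Atf3 at 1.59 FPKM. Jund stood above Ier2 in 9 of 9 libraries without overlap of their ranges, and Egr1 stood above Atf3 in the same way. Dusp1 exceeded Jun in all 9 libraries, although their ranges over the libraries overlapped. The other neighbours exchanged places: Ier2 exceeded Junb in 6 of 9 libraries, Junb exceeded Dusp1 in 6, Jun exceeded Nr4a1 in 7, Nr4a1 exceeded Fos in 4, Fos exceeded Egr1 in 5 and Atf3 exceeded Fosb in 7.

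Fos encodes the AP-1 subunit that cannot pair with itself and needs a Jun partner (ENSRNOG00000008015, chromosome 6, 109300433 to 109303299 as the files give it). Its level was 3.82, 27.6 and 25.7 CPM in control 1 to 3, 43.7, 6.10 and 69.3 CPM in TAA 1 to 3, and 2.72, 7.36 and 32.0 CPM in TAA+celecoxib 1 to 3. Each group thus held libraries at or below 7.36 CPM and others at or above 25.7 CPM, and all 3 groups overlapped. Group means were 19.0 ± 13.2, 39.7 ± 31.8 and 14 ± 15.8 CPM (SD, n = 3). The fitted log2 fold change was 1.06 ± 1.06 (SE) for TAA against control (edgeR adjusted p = 0.826) and -1.50 ± 1.07 for TAA+celecoxib against TAA (edgeR adjusted p = 0.890). Without TAA 3 these values were 0.39 and -0.82, without control 1 the first was 0.58, and without TAA+celecoxib 3 the second was -2.98. For TAA+celecoxib against control it was -0.44 ± 1.06, ranging from -1.92 without TAA+celecoxib 3 to 0.05 without TAA+celecoxib 1.

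Fosb (ENSRNOG00000046667, chromosome 1, 80214494 to 80221710), a close relative of Fos that is also strongly inducible, was counted only 13 to 161 times per library. It was at 1.36, 1.67 and 4.38 CPM in the controls, 2.42, 0.890 and 8.41 CPM in the TAA group, and 2.28, 0.912 and 6.26 CPM in TAA+celecoxib. Replicate 3 of each group was the highest of its group, and the groups overlapped throughout. A log2 fold change of 0.67 ± 0.90 for TAA against control turned to -0.58 without TAA 3. That of -0.31 ± 0.89 for TAA+celecoxib against TAA turned to 0.94 without TAA 3 and to 0.12 without TAA+celecoxib 2, and that of 0.36 ± 0.90 for TAA+celecoxib against control turned to -0.62 without TAA+celecoxib 3.

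The 3 Jun genes encode the partners that Fos proteins bind. Jun (ENSRNOG00000026293, chromosome 5, 114011189 to 114014277), the most active of them as a transcriptional activator, was at 39.1, 97.7 and 108 CPM in the controls, 70.5, 52.9 and 81.0 CPM in the TAA group, and 40.8, 36.2 and 55.1 CPM in TAA+celecoxib. Control 2 and 3 were the highest libraries, while control 1 lay among the TAA+celecoxib libraries. Its fitted log2 fold change was -0.26 ± 0.35 for TAA against control, -0.63 ± 0.35 for TAA+celecoxib against TAA and -0.89 ± 0.35 for TAA+celecoxib against control. The last had an unadjusted p of 0.0329 in edgeR's test over all genes and an adjusted p of 0.911. It was -1.18 without control 1 and TAA+celecoxib 1, the libraries that stood apart. With single libraries left out it ranged from -1.22 without control 1 to -0.64 without control 3. The value for TAA against control rested on single libraries, at -0.0063 without control 3, -0.11 without control 2 or TAA 2, and -0.60 without control 1.

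Junb (ENSRNOG00000042838, chromosome 19, 26092974 to 26094756), an AP-1 subunit that often restrains Jun, was at 143, 157 and 125 CPM in the controls, 184, 113 and 135 CPM in the TAA group, and 105, 77.1 and 122 CPM in TAA+celecoxib. All 3 TAA+celecoxib libraries were below all 3 controls, by a narrow margin between 122 CPM in TAA+celecoxib 3 and 125 CPM in control 3, and they overlapped with TAA. Against TAA the log2 fold change was -0.51 ± 0.22 (unadjusted p = 0.0438 and adjusted p = 0.890 in edgeR's test) and -0.49 ± 0.22 against control (edgeR adjusted p = 0.911). For TAA against control it was 0.02 ± 0.22, but -0.19 without TAA 1, -0.06 without control 3 and 0.17 without TAA 2. The value against TAA was -0.31 without TAA 1, and that against control -0.32 without TAA+celecoxib 2.

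Jund (ENSRNOG00000019568, chromosome 16, 20485029 to 20486707), which is held at a high steady level in many resting cells, was at 299, 297 and 273 CPM in the controls, 258, 224 and 170 CPM in the TAA group, and 290, 157 and 221 CPM in TAA+celecoxib. Every TAA library was below every control library. TAA+celecoxib 1 lay within the control range and the other two TAA+celecoxib libraries below it. TAA against control gave a log2 fold change of -0.42 ± 0.23 (edgeR adjusted p = 0.788), and -0.27 without TAA 3. It was 0.04 ± 0.23 for TAA+celecoxib against TAA, but -0.20 without TAA+celecoxib 1, -0.11 without TAA 3 and 0.24 without TAA+celecoxib 2. For TAA+celecoxib against control it was -0.38 ± 0.23, at -0.62 without TAA+celecoxib 1 and -0.18 without TAA+celecoxib 2.

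Atf3 (ENSRNOG00000003745, chromosome 13, 109817728 to 109849632), a stress-induced bZIP factor that often represses its targets, was low, at 46 to 122 counts per library. It stood at 4.50, 6.12 and 6.94 CPM in the controls, 4.90, 3.29 and 2.72 CPM in the TAA group, and 5.89, 3.23 and 4.51 CPM in TAA+celecoxib. Only TAA 1 among the TAA libraries reached the control range. For Atf3 the log2 fold change was -0.69 ± 0.33 for TAA against control (unadjusted p = 0.0651, adjusted p = 0.788 by edgeR), 0.325 ± 0.329 for TAA+celecoxib against TAA and -0.365 ± 0.325 for TAA+celecoxib against control. Without TAA+celecoxib 1 the last pair of values was 0.10 and -0.59, and without TAA+celecoxib 2 they were 0.52 and -0.17. That against TAA was 0.58 without TAA 1 and 0.15 without TAA 3, and that of TAA+celecoxib against control was -0.22 without control 3.

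**Figure D1:**
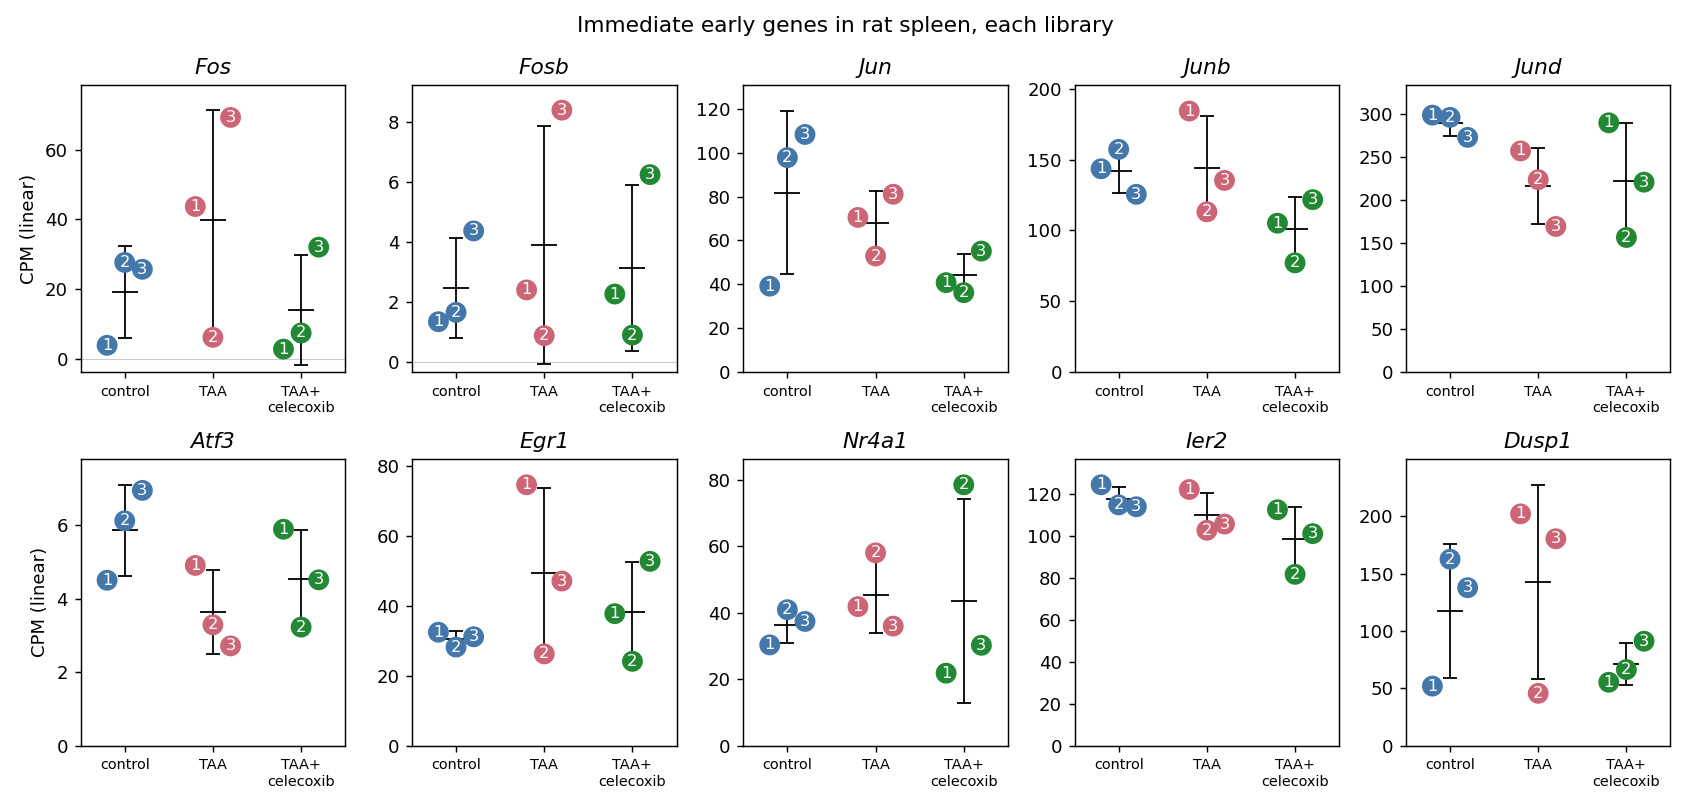
Level of each immediate early gene in CPM on a linear axis that includes 0, in control, TAA and TAA+celecoxib spleen libraries. Numbered points are libraries by replicate number, and the bar and whiskers are the mean and SD of 3 libraries. Fos spans 2.72 to 69.3 CPM with all 3 groups overlapping, whereas Ier2 stays between 81.8 and 125 CPM.

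Egr1 (ENSRNOG00000019422, chromosome 18, 27657628 to 27661429), a zinc finger factor induced through serum response elements, was nearly constant in the controls, at 32.4, 28.2 and 31.1 CPM. It read 74.5, 26.2 and 47.1 CPM in the TAA group and 37.7, 24.1 and 52.7 CPM in TAA+celecoxib. In both treated groups replicate 2 was below all controls and the other two libraries above them. Its highest library was 1.15 times its lowest in the controls, 2.84 times in TAA and 2.18 times in TAA+celecoxib. The difference in spread was not tested. The hepatocyte marker sum was highest in TAA 1 (706 CPM), then control 1 (100 CPM), and a relation to Egr1 was not tested. The log2 fold change of Egr1 for TAA against control was 0.69 ± 0.37 (edgeR adjusted p = 0.788), and 0.26 without TAA 1. For TAA+celecoxib against TAA it was -0.37 ± 0.37, turning to 0.04 when TAA 1 was left out, with -0.12 without TAA+celecoxib 2 and -0.67 when TAA 2 or TAA+celecoxib 3 was left out. For TAA+celecoxib against control it was 0.32 ± 0.37, at 0.02 without TAA+celecoxib 3 and 0.56 without TAA+celecoxib 2.

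Nr4a1 (ENSRNOG00000007607, chromosome 7, 142905758 to 142920216), an orphan nuclear receptor induced by antigen receptor signalling in T and B cells, had its own order of libraries. It was at 30.3, 40.9 and 37.4 CPM in the controls, 41.8, 58.0 and 36.0 CPM in the TAA group, and 21.8, 78.5 and 30.2 CPM in TAA+celecoxib. Its highest libraries were TAA+celecoxib 2 and TAA 2, in which Fos was at 7.36 and 6.10 CPM, and its lowest was TAA+celecoxib 1, where Fos was lowest too. For Nr4a1 the log2 fold changes were 0.32 ± 0.42, -0.06 ± 0.42 and 0.26 ± 0.42 for TAA against control, TAA+celecoxib against TAA and TAA+celecoxib against control. The second was -0.80 without TAA+celecoxib 2 but turned positive when TAA+celecoxib 1 (0.26), TAA+celecoxib 3 (0.15) or TAA 2 (0.16) was left out. The third was -0.48 without TAA+celecoxib 2, 0.58 without TAA+celecoxib 1, 0.47 without TAA+celecoxib 3 and 0.15 without control 1. The first was 0.10 without TAA 2 and 0.21 without control 1, and limma-voom gave -0.26 for the second and 0.027 for the third.

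Ier2 encodes a nuclear immediate early protein, and its entry is annotated in the files as a pseudogene (ENSRNOG00000054344, chromosome 19, 25774143 to 25775659). It was the steadiest member, at 125, 115 and 114 CPM in the controls, 122, 103 and 106 CPM in the TAA group, and 113, 81.8 and 101 CPM in TAA+celecoxib. All 3 TAA+celecoxib libraries were below all 3 controls, separated by 113 against 114 CPM. Its log2 fold change was -0.26 ± 0.14 for TAA+celecoxib against control (edgeR adjusted p = 0.912), -0.10 ± 0.14 for TAA against control and -0.16 ± 0.14 for TAA+celecoxib against TAA. Without TAA+celecoxib 2 the value against control was -0.14 and that against TAA -0.045. TAA against control gave -0.053 without control 1, -0.047 without TAA 2 and -0.17 without TAA 1, and TAA+celecoxib against TAA gave -0.10 without TAA 1 and -0.27 without TAA+celecoxib 1.

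Dusp1 (ENSRNOG00000003977, chromosome 10, 16970626 to 16973418), the phosphatase that ends MAP kinase signalling and is also induced by glucocorticoids, was at 52.0, 162 and 138 CPM in the controls, 202, 45.7 and 180 CPM in the TAA group, and 55.3, 66.3 and 91.1 CPM in TAA+celecoxib. The TAA libraries held both its highest and its lowest value, and the TAA+celecoxib libraries lay inside that range. Group means were 117 ± 58.0, 143 ± 84.7 and 70.9 ± 18.3 CPM (SD, n = 3). Its log2 fold change was 0.28 ± 0.55 for TAA against control, but -0.07 without control 1, -0.06 without TAA 1 and 0.08 without TAA 3, and 0.59 without control 2 and 0.70 without TAA 2. It was -1.01 ± 0.56 for TAA+celecoxib against TAA (unadjusted p = 0.104, adjusted p = 0.890 by edgeR) and -0.73 ± 0.55 for TAA+celecoxib against control, the last at -0.42 without control 2 and -1.08 without control 1. The value against TAA was -0.68 without TAA 1 and -1.43 without TAA 2.

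Proximal promoter sequences were read from RefSeq (build GRCr8, not the coordinates of the count files), which matched 7 of the 10 members: Fosb, Junb, Jund, Egr1, Ier2, Dusp1 and Nr4a1. Fos, Jun and Atf3 were not matched. The 250 bases before each start were searched on both strands for the cAMP response element (CRE, TGACGTCA), the AP-1 site (TGACTCA or TGAGTCA), the EGR site (GCGTGGGCG or GCGGGGGCG) and the CArG box, which serum response factor binds. Matches of different motifs did not overlap in these windows. Below is the window of Egr1 (chr18:26736828-26737077, plus strand), the only one of the 7 searched that held CArG boxes. Also shown are the windows of Dusp1 (chr10:17184603-17184852, plus strand), Ier2 (chr19:40399123-40399372, plus strand) and Jund (chr16:18769772-18770021, minus strand), the 3 of the 7 with a CRE. They are written 5′ to 3′ with matches in capitals.
Egr1: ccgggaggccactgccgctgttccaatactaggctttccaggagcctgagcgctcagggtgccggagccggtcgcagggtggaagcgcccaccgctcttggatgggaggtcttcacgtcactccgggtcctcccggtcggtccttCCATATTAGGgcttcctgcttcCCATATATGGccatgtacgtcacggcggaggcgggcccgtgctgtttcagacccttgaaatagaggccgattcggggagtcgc
Dusp1: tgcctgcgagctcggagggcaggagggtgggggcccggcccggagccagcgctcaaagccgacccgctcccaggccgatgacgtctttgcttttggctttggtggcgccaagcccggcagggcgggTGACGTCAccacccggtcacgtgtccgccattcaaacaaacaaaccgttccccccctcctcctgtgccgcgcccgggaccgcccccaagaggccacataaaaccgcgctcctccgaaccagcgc
Ier2: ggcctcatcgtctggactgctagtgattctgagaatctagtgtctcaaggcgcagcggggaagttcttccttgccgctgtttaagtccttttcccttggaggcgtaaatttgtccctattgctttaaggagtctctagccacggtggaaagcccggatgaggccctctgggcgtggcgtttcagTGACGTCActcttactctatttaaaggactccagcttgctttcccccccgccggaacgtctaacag
Jund: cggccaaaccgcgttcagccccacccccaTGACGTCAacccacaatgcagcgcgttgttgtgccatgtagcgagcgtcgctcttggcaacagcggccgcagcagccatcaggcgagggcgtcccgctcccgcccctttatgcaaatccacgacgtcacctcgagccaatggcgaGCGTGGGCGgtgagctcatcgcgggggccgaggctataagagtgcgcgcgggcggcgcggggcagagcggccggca

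The capitals in Egr1 are CArG boxes at positions -105 to -96 and -83 to -74 from the start. The CRE lies at -124 to -117 in Dusp1, -66 to -59 in Ier2 and -221 to -214 in Jund, where the second run of capitals is an EGR site at -76 to -68. Nr4a1 held an EGR site at -73 to -65, and none of the 7 member windows searched held an AP-1 site. Of all 33469 RefSeq windows of the same length, 1.59% held a CRE, 1.5% a CArG box, 2.85% an EGR site and 4.05% an AP-1 site. The CRE was present in Dusp1, which varied 4.42-fold over the libraries, and in Ier2 and Jund, which varied 1.52-fold and 1.91-fold. A relation between motif and spread was not tested, and Fos, the most variable member, had no window. Such matches describe the sequence only.

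The first comparison, TAA against control, concerns thioacetamide alone. Of the 10 members 0 passed edgeR's threshold of 0.05 (adjusted p-values 0.788 to 0.983), 0 had an unadjusted p under 0.05, and DESeq2 and limma-voom also called 0. Over all genes edgeR called 0, with 957 (6.0%) at an unadjusted p under 0.05, while DESeq2 called 58 and limma-voom 0. Fitted values were higher in TAA for 6 members (Fos, Egr1, Fosb, Nr4a1, Dusp1 and Junb), where 50.2% of all tested genes were higher, and lower for Atf3, Jund, Jun and Ier2. The sign of Junb turned with limma-voom (-0.0017). The median log2 fold change of the members was 0.15, against 0.0017 over all genes, and it was -0.12 without TAA 1, -0.01 without control 1, 0.26 without control 2, next to 0 without TAA 3 and -0.02 without control 1 and TAA+celecoxib 1. The libraries of both groups did not overlap for 1 member, Jund, or 10% of the list, where 14.8% of all tested genes did not overlap (6.94% higher and 7.89% lower in TAA).

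The second, TAA+celecoxib against TAA, concerns celecoxib on top of the toxin. EdgeR called 0 members (adjusted p-values 0.890 to 0.985), as did DESeq2 and limma-voom, and 1 member, Junb, had an unadjusted p under 0.05, where 812 of all genes (5.09%) did. Over all genes edgeR called 0, DESeq2 25 and limma-voom 0. Fitted values were lower in TAA+celecoxib for 8 members, led by Fos (-1.50) and Dusp1 (-1.01), and higher for Atf3 and Jund. Of all genes tested 51.2% were higher. The median over the members was -0.34, against 0.0071 over all genes, and it ranged from -0.67 without TAA+celecoxib 3 to -0.21 without TAA 1. For 0 of the 10 members were the groups free of overlap, where 10.9% of all tested genes were (5.87% higher and 5.03% lower in TAA+celecoxib).

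The third, TAA+celecoxib against control, sets both agents against neither. EdgeR, DESeq2 and limma-voom each called 0 members (edgeR adjusted p-values 0.911 to 0.991). Jun alone had an unadjusted p under 0.05, as did 803 genes (5.03%) of all those tested. Over all genes edgeR called 0, DESeq2 27 and limma-voom 0. Fitted values were lower for 7 members and higher for Fosb, Egr1 and Nr4a1, where 50.2% of all genes were higher, and the median was -0.37 against 0.0012, at -0.18 without TAA+celecoxib 2. The groups did not overlap for Junb and Ier2, 2 of 10 members, against 9.68% of all tested genes (5.27% higher and 4.42% lower in TAA+celecoxib). Both were lower. This comparison shares its libraries with the other two, so the 3 sets of fold changes are not independent.

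**Figure D2:**
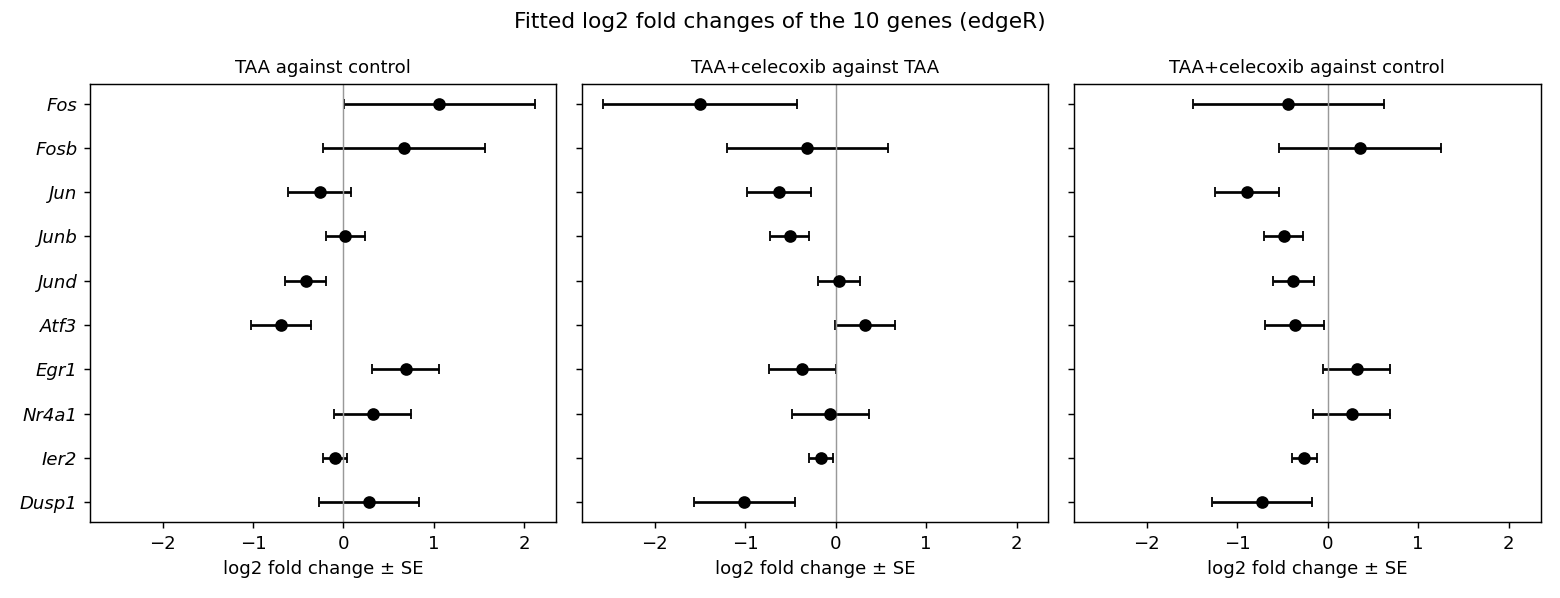
Fitted log2 fold change of each member, with its SE from edgeR, for TAA against control, TAA+celecoxib against TAA, and TAA+celecoxib against control. Fos carries the widest error, 1.06 to 1.07, and Ier2 the narrowest, 0.136, and no member passed the adjusted threshold in any of the 3 comparisons.

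The spread between libraries of one group was measured as the SD of log2 CPM around the group means, pooled over the 3 groups. It was 1.74 for Fos, higher than in 98.8% of the genes tested, 1.27 for Fosb (96.8%) and 0.88 for Dusp1 (91.8%). Nr4a1 (0.60), Egr1 (0.55), Jun (0.53) and Atf3 (0.39) lay at the percentiles 80.8, 77.3, 76.2 and 63.0. Jund (0.32) and Junb (0.30) were close to the median of all tested genes, 0.30, and Ier2 (0.16) was at percentile 19.9. The most and the least variable members thus belong to the same class of genes. Counting error is part of this measure, and the lowest counts were 13 for Fosb, 43 for Fos and 46 for Atf3. For all 10 members the highest library of some group exceeded its lowest by a larger ratio than that between the highest and lowest group means. For Fos those ratios were 11.8 within a group and 2.83 between group means, for Dusp1 4.42 and 2.01, and for Ier2 1.38 and 1.20. The first is the largest of 3 ratios between single libraries, and the second is a ratio between means of 3 libraries. Such a choice favours the first for any gene without a large group difference. The share over all tested genes was not counted.

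**Figure D3:**
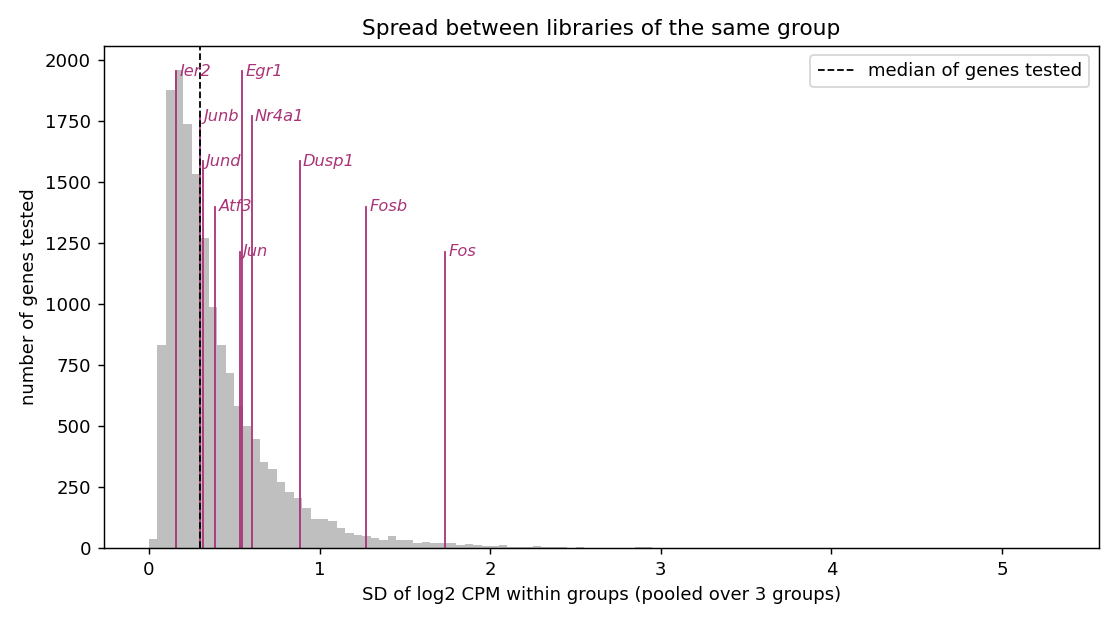
Histogram of the SD of log2 CPM within groups for the 15954 genes tested, with the 10 members marked by lines whose heights only separate the names. The dashed line is the median of all tested genes, 0.30. Fos at 1.74 and Fosb at 1.27 lie in the right tail and Ier2 at 0.16 on the left of the median.

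The libraries low in Fos were not those of one group. Control 1, TAA 2, TAA+celecoxib 1 and TAA+celecoxib 2 held the 4 lowest Fos values, 2.72 to 7.36 CPM, and the remaining 5 libraries held 25.7 to 69.3 CPM. The same 4 libraries were the lowest 4 for Jun and Dusp1, 2 of the other 9 members. This set of libraries was noticed after the values were seen. Among the 15944 tested genes that are no member, 1.53% had these libraries as their lowest 4 and 0.884% as their highest 4. Fosb, Junb and Atf3 shared 3 of the 4, and Jund, Egr1, Ier2 and Nr4a1 shared 2.

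Of these libraries, control 1 and TAA+celecoxib 1 had the low macrophage and endothelial sums given above. TAA 2 and TAA+celecoxib 2 did not, at 4870 and 4000 CPM for macrophage and 388 and 390 CPM for endothelial markers. They stood out in other lists. TAA+celecoxib 2 had the highest erythroid sum (3430 CPM) and the lowest B cell sum (997 CPM). TAA 2 had the highest sum of smooth muscle and stroma markers (963 CPM). The mean log2 CPM of 13 heat shock genes, which respond to stress of another kind, was 6.32 and 6.41 in control 1 and TAA+celecoxib 1, 6.41 and 5.95 in TAA 2 and TAA+celecoxib 2, and 6.07 to 7.45 in the other 5 libraries, with control 2 the highest. The part of cell makeup in the Fos values was not tested.

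**Figure D4:**
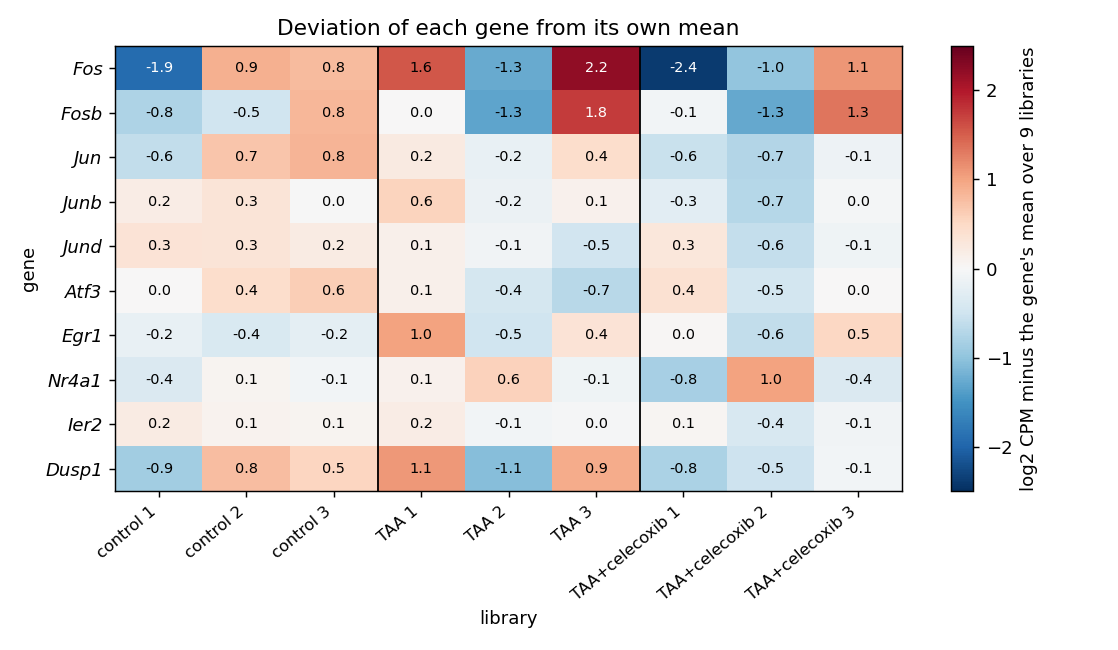
Log2 CPM of each member minus its own mean over the 9 libraries, by library, with lines between the groups. Fos runs from -2.4 in TAA+celecoxib 1 to 2.2 in TAA 3, Dusp1 and Jun are lowest in the same 4 libraries as Fos, and Nr4a1 reaches its highest value, 1.0, in TAA+celecoxib 2, where Fos is at -1.0.

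Against the mean log2 CPM of the other 9 members over the 9 libraries, Dusp1 had the highest Pearson correlation (0.91), followed by Fos (0.84) and Jun (0.80). Junb (0.65), Fosb (0.59), Egr1 (0.56) and Ier2 (0.35) were lower, Atf3 stood at 0.14, Jund at -0.01 and Nr4a1 at -0.32. These values are descriptions without a test, since the Fos values fall into clusters of 4 and 5 libraries. The means were taken over unscaled log2 CPM, so widely varying members such as Fos and Fosb weigh more in them than steady ones such as Ier2. TAA+celecoxib 2 was the lowest library for 5 members (Jun, Junb, Jund, Egr1 and Ier2) and the highest for Nr4a1, and TAA 1 was the highest for Junb, Egr1 and Dusp1.

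The 10 genes outside the list most like the mean of all 10 members had correlations of 0.904 to 0.939 over the 9 libraries, and 0.596% of the tested genes outside the list exceeded 0.8, about as many as lay below -0.8 (0.583%). They were Cfap221, Ccn1, Limk2, Chl1, Tgif1, Amotl2, Tbc1d19, Lrch4, Rasl11a and an unnamed gene model. Ccn1, an immediate early gene that encodes a matricellular protein, had the largest range of these, at 27.9, 75.7 and 90.9 CPM in the controls, 197, 17.8 and 71.4 CPM in the TAA group, and 9.31, 15.4 and 89.1 CPM in TAA+celecoxib. The 4 lowest libraries of Fos were the lowest 4 of all 10 of these genes. The genes were chosen by their correlation with the mean of the members, in which widely varying members such as Fos weigh most. Amotl2 ranged from 24.1 to 47.9 CPM and Tgif1, a transcriptional corepressor, from 21.4 to 34.1 CPM. Cfap221 and Chl1 stayed at or below 1.31 CPM.

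Genes around the members were read from lists of related function. Among 18 other immediate early transcription factors 17 were tested (Egr4 was too low), and edgeR called 0 in each comparison. Between TAA and control 0 had an unadjusted p under 0.05, where 6.0% of all tested genes did. Fitted values were lower in TAA for 11 of 17, where 50.2% of all tested genes were higher. The median log2 fold change of the list was -0.25, and -0.16 without TAA 3. Between TAA+celecoxib and TAA 9 of 17 were lower and the median was -0.02, with a range from -0.02 to 0.10 as single libraries were left out. Maff, a small Maf protein, had the smallest p of the list in TAA+celecoxib against control, at 11.7, 9.17 and 10.8 CPM in the controls and 6.27, 5.26 and 7.67 CPM in TAA+celecoxib (log2 fold change -0.72 ± 0.27, edgeR adjusted p = 0.911). Those groups did not overlap, and TAA lay between and across them at 6.89, 6.99 and 12.2 CPM. Of all tested genes, 4.42% were lower in TAA+celecoxib than in control without overlap. Bhlhe40, a circadian and hypoxia-responsive repressor, led the list in TAA against control, with a log2 fold change of 0.42 ± 0.19 (edgeR adjusted p = 0.788), and its groups overlapped. Next in that comparison were Ier5 (-0.37, and -0.22 without control 1) and Egr2 (-0.61, and -0.26 without control 1), each with an edgeR adjusted p of 0.788. For TAA+celecoxib against TAA the smallest p belonged to Maff (-0.44, and -0.12 without TAA 3), then Myc (0.31, and 0.02 without TAA+celecoxib 1) and Fosl1 (0.46, and 0.27 without TAA+celecoxib 1), each with an edgeR adjusted p of 0.890.

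All 21 feedback inhibitors and mRNA decay factors were tested and edgeR called 0 in each comparison. Their median log2 fold change was 0.08 for TAA against control, and 0.14 without control 2. It was -0.11 for TAA+celecoxib against TAA, between -0.03 without TAA+celecoxib 2 and -0.21 without TAA+celecoxib 1. Dusp6, the phosphatase that acts on ERK, was at 75.6, 93.9 and 90.1 CPM in the controls, 102, 125 and 138 CPM in the TAA group, and 71.5, 95 and 89.7 CPM in TAA+celecoxib. Every TAA library was above every library of the other two groups. Its log2 fold change was 0.49 ± 0.16 for TAA against control (unadjusted p = 0.0133, adjusted p = 0.788 by edgeR) and -0.51 ± 0.16 for TAA+celecoxib against TAA (unadjusted p = 0.0109, adjusted p = 0.890 by edgeR), and both comparisons share the TAA libraries. Of all tested genes, 6.94% were higher in TAA than in control without overlap, and 5.03% lower in TAA+celecoxib than in TAA. Genes named from the lists were picked by smallest p, which favours such separation.

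Socs3, the feedback inhibitor of STAT3 signalling, had the smallest p of these genes for TAA+celecoxib against TAA. It was at 24.5, 21.6 and 22.2 CPM in the controls, 24.4, 25.2 and 32.9 CPM in the TAA group, and 19.3, 14.8 and 16.5 CPM in TAA+celecoxib, which lay below all other libraries. Its log2 fold change against TAA was -0.71 ± 0.17 (unadjusted p = 0.00216, adjusted p = 0.890 by edgeR). Among all tested genes, 5.03% were lower in TAA+celecoxib than in TAA without overlap, and 4.42% lower than in control. Nab2, a corepressor induced by and acting on EGR proteins, was at 52.7, 42.6 and 43.2 CPM in the controls and 29.5, 31.0 and 32.2 CPM in TAA, without overlap (log2 fold change -0.58 ± 0.19, edgeR adjusted p = 0.788). Egr1 itself overlapped between those groups, and 7.89% of all tested genes were lower in TAA than in control without overlap. Spry1 and Spry4, inhibitors of receptor tyrosine kinase signalling, had log2 fold changes of 0.49 ± 0.22 (TAA against control) and -0.66 ± 0.31 (TAA+celecoxib against TAA), and Nfkbia, the NF-kappaB inhibitor, -0.48 ± 0.20 (TAA+celecoxib against control), with adjusted p-values of 0.788, 0.890 and 0.911 by edgeR. Without TAA+celecoxib 2 the value of Nfkbia was -0.31.

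Of 14 bZIP partners of AP-1, all tested, edgeR called 0 in each comparison. Fitted values were lower for 11 of 14 in TAA+celecoxib than in control, where 50.2% of all tested genes were higher. The median log2 fold change there was -0.19, and -0.01 without control 3. In TAA 7 of 14 were lower than in control, and in TAA+celecoxib 9 of 14 were lower than in TAA. Batf3, which pairs with Jun proteins in dendritic and T cells, was at 26.9, 23.7 and 18.8 CPM in the controls, 13.9, 14.6 and 14.2 CPM in the TAA group, and 18.3, 8.98 and 15.1 CPM in TAA+celecoxib. Its log2 fold change was -0.70 ± 0.25 for TAA against control (unadjusted p = 0.0215, adjusted p = 0.788 by edgeR) with no overlap. In that comparison 7.89% of all tested genes were lower without overlap. Mafg had 0.50 ± 0.21 and Ddit3 -0.35 ± 0.16 there (edgeR adjusted p = 0.788 for each), Atf4 0.35 ± 0.20 for TAA+celecoxib against TAA (edgeR adjusted p = 0.890), and Atf2 0.33 ± 0.18 for TAA+celecoxib against control (edgeR adjusted p = 0.912). Leaving out 1 library moved Mafg to 0.32 (control 1), Ddit3 to -0.21 (control 2), Atf4 to 0.14 (TAA+celecoxib 1) and Atf2 to 0.16 (TAA+celecoxib 2). Of 20 kinases and factors upstream of the members 19 were matched and tested, and edgeR called 0 in each comparison. Their medians were -0.0073, 0.02 and 0.05 for TAA against control, TAA+celecoxib against TAA and TAA+celecoxib against control, and the first and second changed sign as single libraries were left out. Atf1, a CREB relative, was at 67.5, 76.3 and 77.8 CPM in the TAA group and 93.5, 88.6 and 81.4 CPM in TAA+celecoxib (log2 fold change 0.25 ± 0.11, unadjusted p = 0.0464, adjusted p = 0.890 by edgeR). Rps6ka1, Braf, Mapk8, Creb1 and Map2k4 had unadjusted p-values of 0.133 to 0.343 where named. Srf, the factor that binds CArG boxes, was counted with the transcription factors and had a log2 fold change of -0.30 ± 0.16 for TAA+celecoxib against control (edgeR adjusted p = 0.912), and -0.15 without TAA+celecoxib 2.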

How the data were processed

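RNA of 9 rat spleen libraries was isolated with TRIzol and sequenced from Illumina libraries, per the labels' protocols. The deposited values are read counts per gene, not normalized, and FPKM, and the deposited FPKM equal the count divided by gene length and by a library constant of 0.955 to 1.05 times the count total. HISAT2 2.0.5 and mRatBN7.2 are named in the submitters' processing notes. How reads were counted, on which annotation and strand, is not given in the sources used here. Gene positions come from the count files, whose chromosome 1 entries reach base 282724300, past the end of chromosome 1 in mRatBN7.2, so they are not of that build, and their build is not named. No other gene entry overlaps a member.

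Counts were tested with edgeR 4.0.16 (quasi-likelihood, all 9 libraries by group, TMM, filterByExpr with minimum count 10 and total 15) in R 4.3.3, 2-sided, with Benjamini-Hochberg adjustment over 15954 genes and a threshold of 0.05. Each SE is the fold change divided by the square root of its F statistic. Log2 CPM used a prior count of 2. An exact permutation test of 3 against 3 libraries cannot go below p = 0.1 and was not used. The procedure was tested on simulated data, but its power at fold changes of the size seen in the members is not reported here. Alternatives were DESeq2 1.42.0, limma-voom (limma 3.58.1), DESeq2 size factors, no filter, a replicate block, the 2 groups alone and leaving out libraries.

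All 10 members are named. Of each related list, up to 3 genes with the smallest p in each comparison were named, except 1 result not reported here, as were the 10 most alike genes by Pearson correlation. The members and lists were chosen with earlier results of these data known.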

Additional observations from a re-analysis of the deposited data

How the results depend on the processing

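DESeq2 called 58, 25 and 27 genes for TAA against control, TAA+celecoxib against TAA and TAA+celecoxib against control, where edgeR called 0. A fit of the 2 groups alone called 1 gene for TAA+celecoxib against control. Leaving out libraries gave 0 to 1, 0 to 3 and 0 to 2 genes, with the 1 found without TAA+celecoxib 2, and the 3 and the 2 without TAA 1. Members called stayed at 0 under every alternative run, and the smallest adjusted p of a member was 0.537. Of 180 member fold changes under settings that kept all libraries of a comparison, 178 kept their direction, and Junb for TAA against control did not, at -0.0017 with limma-voom and -0.011 with the replicate block. Of 300 values with libraries left out, 281 kept it. The exceptions were, for TAA against control, Fosb (-0.58 to 1.37), Junb (-0.19 to 0.17) and Dusp1 (-0.088 to 0.70). For TAA+celecoxib against TAA they were Fosb (-1.29 to 0.94), Jund (-0.20 to 0.24), Egr1 (-0.67 to 0.042) and Nr4a1 (-0.80 to 0.27), and for TAA+celecoxib against control Fos (-1.92 to 0.053), Fosb (-0.62 to 1.06) and Nr4a1 (-0.48 to 0.58). The cause was not tested.

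With the replicate block edgeR called 0 of the 15954 genes tested in each comparison, with 1475, 1287 and 1065 at an unadjusted p under 0.05 against 957, 812 and 803 without it. Of the 10 members, 0, 1 and 3 were under that limit with it and 0, 1 and 1 without it. The labels state no pairing. Deviations from the group means correlated above 0.1 in 6 of 9 same-numbered pairs (-0.213 to 0.475), and pairing was assumed only if all pairs did. A library correlated best with its own number in 11 of 18 library and group combinations, a hint from the data and not from the design. For the median of a list, 16 of 336 alternative values moved by more than 1 SD of that median between libraries. The alternatives for 54 fold changes of related genes were added after the data were seen, and of 864 values 0 reversed and 1 passed the threshold, Hspa1b with DESeq2 for TAA+celecoxib against control (-3.65, DESeq2 adjusted p = 0.0044). The lowest library held 13 counts of Fosb, 43 of Fos and 46 of Atf3.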

Other observations

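Of 20 effector genes of the immediate early response or targets of AP-1 or EGR factors, 19 were tested, and edgeR called 0 in each comparison. In TAA 10 were lower and 9 higher than in control. The median log2 fold changes were -0.10, -0.09 and -0.07 for TAA against control, TAA+celecoxib against TAA and TAA+celecoxib against control. Each changed sign as single libraries were left out. Il6, a cytokine, had the smallest p of the list in the first and second of these comparisons. It was at 4.38, 7.01 and 3.59 CPM in the controls, 1.63, 2.06 and 2.30 CPM in the TAA group, and 6.08, 4.77 and 4.12 CPM in TAA+celecoxib. All 3 TAA libraries were below all 6 others. Of all tested genes, 7.89% were lower in TAA than in control without overlap, and 5.87% were higher in TAA+celecoxib than in TAA without overlap. The fitted log2 fold change was -1.32 ± 0.32 for TAA against control (unadjusted p = 0.00279, adjusted p = 0.788 by edgeR) and 1.31 ± 0.32 for TAA+celecoxib against TAA (unadjusted p = 0.00284, adjusted p = 0.890 by edgeR), from the same TAA libraries. Leaving out libraries moved the first between -1.51 and -0.99 and the second between 1.15 and 1.44. Ccn2, a matricellular protein linked to fibrosis, was at 96.7, 97.3 and 152 CPM in the TAA group and 75.9, 65.0 and 62.2 CPM in TAA+celecoxib (log2 fold change -0.77 ± 0.26, edgeR adjusted p = 0.890). Mmp9, a gelatinase abundant in neutrophils, was at 8.38, 10.7 and 56.9 CPM in the TAA group. Its log2 fold change against control of 2.10 was 0.69 without TAA 3, the library with the highest neutrophil marker sum (1980 CPM). A relation between Mmp9 and neutrophil markers was not tested. Ccl2 (-1.07 ± 0.41, TAA against control), Rhob (-0.64 ± 0.22, TAA+celecoxib against control) and Sgk1 (0.33 ± 0.18, the same) had adjusted p-values of 0.788, 0.911 and 0.912 by edgeR.

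Heat shock genes, which also respond to acute stress, were counted separately. All 13 tested had lower fitted values in TAA and in TAA+celecoxib than in control, where 50.2% of all tested genes were higher in each comparison. EdgeR called 0 of the 13, and 4 and 5 had an unadjusted p under 0.05, as did 6.0% and 5.03% of all tested genes. Both comparisons share the control libraries, so they are not independent. The median log2 fold changes of the 13 genes, -0.61 and -0.49, became -0.23 and -0.24 without control 2. Hspa1b, an inducible chaperone, was at 2.28, 43.2 and 17.6 CPM in the controls, 5.40, 4.11 and 7.21 CPM in the TAA group, and 2.09, 0.842 and 2.14 CPM in TAA+celecoxib. Control 1 lay with the treated libraries. Dnaja1 (-0.90), Chordc1 (-0.76) and Dnajb1 (-0.65) had the smallest p for TAA against control, and were at -0.44, -0.48 and -0.38 without control 2, and Hspb1 (-0.77) and Cryab (-0.31) followed Hspa1b for TAA+celecoxib against TAA.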
